A study of Setaria viridis with 23 samples.

Results

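The 10 genes described here are the most highly expressed MADS-box transcription factor genes of the *Setaria viridis* inflorescence among those that the study did not single out by name in its early group (floral transition and inflorescence meristem identity, Group 1) or its late group (floral organ development, Group 4). The study listed 31 MADS-box genes. Of these, 3 were named in Group 1 and 9 in Group 4, and the 10 genes with the highest mean level over all libraries were taken from the remaining 19. The count matrix held 35214 genes in all. RNA was sequenced from inflorescence primordia of accession A10.1, hand-dissected at 6 stages, namely 10, 12 and 14 days after sowing (DAS), and then 15, 16 and 18 DAS. There were 4 libraries at each stage except 12 DAS, which had 3, and every library was a pool of many primordia, so differences between individual plants are not seen. All stages shared 1 genotype, 1 growth chamber regime and a morning sampling window. In the study's morphology the series runs from the newly formed inflorescence meristem, through rounds of branching, to spikelets with bristles and then floral organs. The 10, 12 and 14 DAS libraries were sequenced paired-end and the 15, 16 and 18 DAS libraries single-end, so a difference between 15 and 14 DAS cannot be told apart from the change of sequencing.

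MADS-box proteins bind DNA as dimers and join into larger complexes, so that which members are present together sets which targets are bound. In grasses the AP1/FUL-like members mark the reproductive meristem and act in inflorescence and spikelet meristem identity. SEPALLATA-like members are partners in most floral complexes, and SOC1-like members take part in the switch to flowering. The S. viridis genes are called here by their closest rice gene in the study's annotation. The AP1/FUL-like genes were the homologs of OsMADS15 (Sevir.2G006400), OsMADS14 (Sevir.9G087300) and OsMADS18 (Sevir.2G393300), and the SEPALLATA-like genes were the homologs of OsMADS5 (Sevir.4G060800) and OsMADS34 (Sevir.9G087100). Among the rest, Sevir.5G305800 is the homolog of OsMADS32, which acts in floral organ identity in rice. The other 4 have a member of the SOC1-like clade as their closest Arabidopsis gene. They are the homolog of OsMADS56 (Sevir.9G347400), a gene described as MADS-box transcription factor 50-like with SOC1 as closest Arabidopsis gene (Sevir.9G565200, called here the OsMADS50-like gene), and a pair that share OsMADS37 as closest rice gene (Sevir.6G230800 and Sevir.6G230900).

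The genes were selected on their mean CPM (the count divided by the library total, times 1e6) over the 23 libraries, and these means are given with no test. That mean was 609 CPM for the OsMADS32 homolog, 234 for OsMADS15, 186 for OsMADS14, 167 for OsMADS34, 130 for OsMADS18, 90.3 for OsMADS5, 58.6 for Sevir.6G230800, 53.0 for OsMADS56, 48.4 for the OsMADS50-like gene and 28.7 for Sevir.6G230900. Just outside lay Sevir.5G438700, the homolog of OsMADS65, at 28.1 CPM, and Sevir.7G117600, a homolog of OsMADS26, at 12.5 CPM. CPM carries no correction for transcript length, so the order describes counts, not transcript numbers. The same 10 genes were chosen when the libraries were scaled by TMM (edgeR's trimmed mean of M-values), although Sevir.6G230900 and Sevir.5G438700 then lay at 28.2 and 28.1 CPM.

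Library totals were between 7630744 and 24467495 counts, and the lowest 2 were 15 DAS replicates 1 and 2. Markers of meristem tissue (SvKn1, SvRs1, SvTd1 and SvFon2, none at 0 throughout) had a summed level of 206 to 356, 414 to 542 and 630 to 831 CPM at 10, 12 and 14 DAS, in that order, and of 597 to 848, 691 to 910 and 530 to 665 CPM at the 3 later stages. The sum of 5 green leaf markers was 87.9 to 107, 67.7 to 81.3, 49.4 to 55.5, 66.3 to 103, 47.2 to 54.3 and 73.5 to 102 CPM at the 6 stages in time order. These markers were LIL3, PSB27, a one-helix protein, Rubisco small subunit and Rubisco activase. Most of the sum was LIL3, with stage means of 67.4, 53.3, 41.8, 45.9, 38.3 and 50.3 CPM. The 2 Rubisco genes were near the floor, with stage means of at most 1.70 CPM for the small subunit and 0.846 CPM for the activase. In whole primordia, more cells of a type and more RNA per cell cannot be told apart. All levels below are TMM-normalized CPM. Differences were tested by edgeR's quasi-likelihood F-test on the counts. The p-values were adjusted over 21180 genes by the Benjamini-Hochberg method, with a threshold of 0.05. Differences are given as log2 fold changes of the later over the earlier stage with standard errors (SE). Each SE was worked back from the F statistic and the size of the change. It was not estimated separately, so it adds no evidence beyond the test.

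These genes took up a growing part of the MADS-box counts as the inflorescence branched. They held 27.6 to 33.7% of all MADS-box counts in the 10 DAS libraries, 63.5 to 68.7% at 12 DAS and 84.9 to 89.1% at 14 DAS. Their share was 85.1 to 87.8% at 15 DAS, 89.9 to 91.6% at 16 DAS and 80.4 to 85.4% at 18 DAS. The 3 genes of Group 1 held 57.1 to 63.8% at 10 DAS and 2.92 to 3.66% at 18 DAS, while the 9 genes of Group 4 stayed at or below 1.5% through 16 DAS and held 9.05 to 14.4% at 18 DAS. The groups were formed on these same samples, so this exchange is partly what the choice of genes made it, and it is given as a description.

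**Figure D1:**
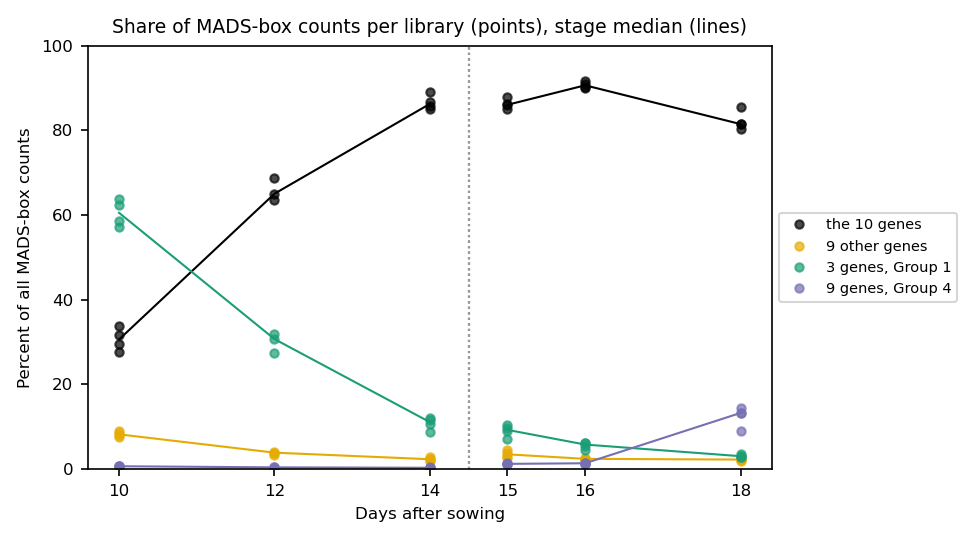
Percent of all MADS-box counts (y axis) held by 4 classes of MADS-box genes in each library, against days after sowing (x axis). Points are libraries, lines join stage medians within the paired-end and single-end libraries, and the dotted line separates these. The 10 genes held 27.6 to 33.7% at 10 DAS and at least 80.4% in every library from 14 DAS on.

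All 10 genes were higher at 14 than at 10 DAS, and 9 of them were already higher at 12 DAS. At 14 against 10 DAS, 10 of 10 genes were called higher, with a median log2 fold change of 2.54, where 20.7% of all tested genes were higher and 21.5% lower. Tissue markers moved over the same stages. All 4 meristem markers were called higher at 14 than at 10 DAS, by log2 1.23 for SvKn1 to 2.70 (SE 0.62) for SvFon2. SvFon2 was near the floor, with means of 0.0909 CPM at 10 DAS and 0.562 CPM at 14 DAS. The next largest rise was 1.89, for SvTd1. The study placed these 4 markers in its Group 3, whose genes rise over the early stages in these same samples. Of 5 green leaf markers, 3 were lower. The part of these tissue markers in the rise of the 10 genes was not tested. At 12 against 10 DAS, 9 of 10 were higher (median 1.67), where 6.61% of all genes were higher and 7.75% lower. At 14 against 12 DAS, 6 of 10 were higher (median 0.84), where 2.31% of all genes were higher and 2.96% lower. The median over all tested genes was within 0.03 of 0 in every comparison. Since the genes named in Group 1 were left out by the choice, genes that fall early were under-represented among the candidates. The ranking by mean level adds to this, since only 4 of the 23 libraries were from 10 DAS. It favours genes that are low at 10 DAS and high later, so these counts are given as a description. A test of any change among 10, 12 and 14 DAS called 9 of the 10 and 35.7% of all genes. The exception was Sevir.6G230800 (adjusted p = 0.0894).

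Fewer of the genes changed after 15 DAS, and most of those that did were lower later. At 18 against 15 DAS, 1 of 10 genes was higher and 4 were lower (median -0.17), where 22.1% of all genes were higher and 20.6% lower. At 16 against 15 DAS, 3 of 10 were lower and the median was -0.11, where 13.8% of all genes were higher and 14.8% lower. At 18 against 16 DAS, 2 of 10 were lower and the median was -0.05, where 20.2% of all genes were higher and 16.3% lower. That count was 1 in 6 of the fits that left out a single library, as given below for the OsMADS56 homolog. Any change among 15, 16 and 18 DAS was called for 6 of 10, against 57.7% of all genes, so the members' share was near that of the background. At 15 against 14 DAS, 6 of 10 were higher and 3 lower, where 29.4% of all genes were higher and 27.0% lower. Scaled by library size alone, the median log2 fold change of all genes was 0.128 in this last comparison, in place of 0.028 with TMM, and -0.105 at 16 against 15 DAS, in place of -0.025. The part of the called genes that were higher was then 32.6% in place of 48.2% at 16 against 15 DAS, and 40.7% in place of 51.8% at 18 against 15 DAS. No member that was called in these comparisons changed direction with that scaling.

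**Figure D2:**
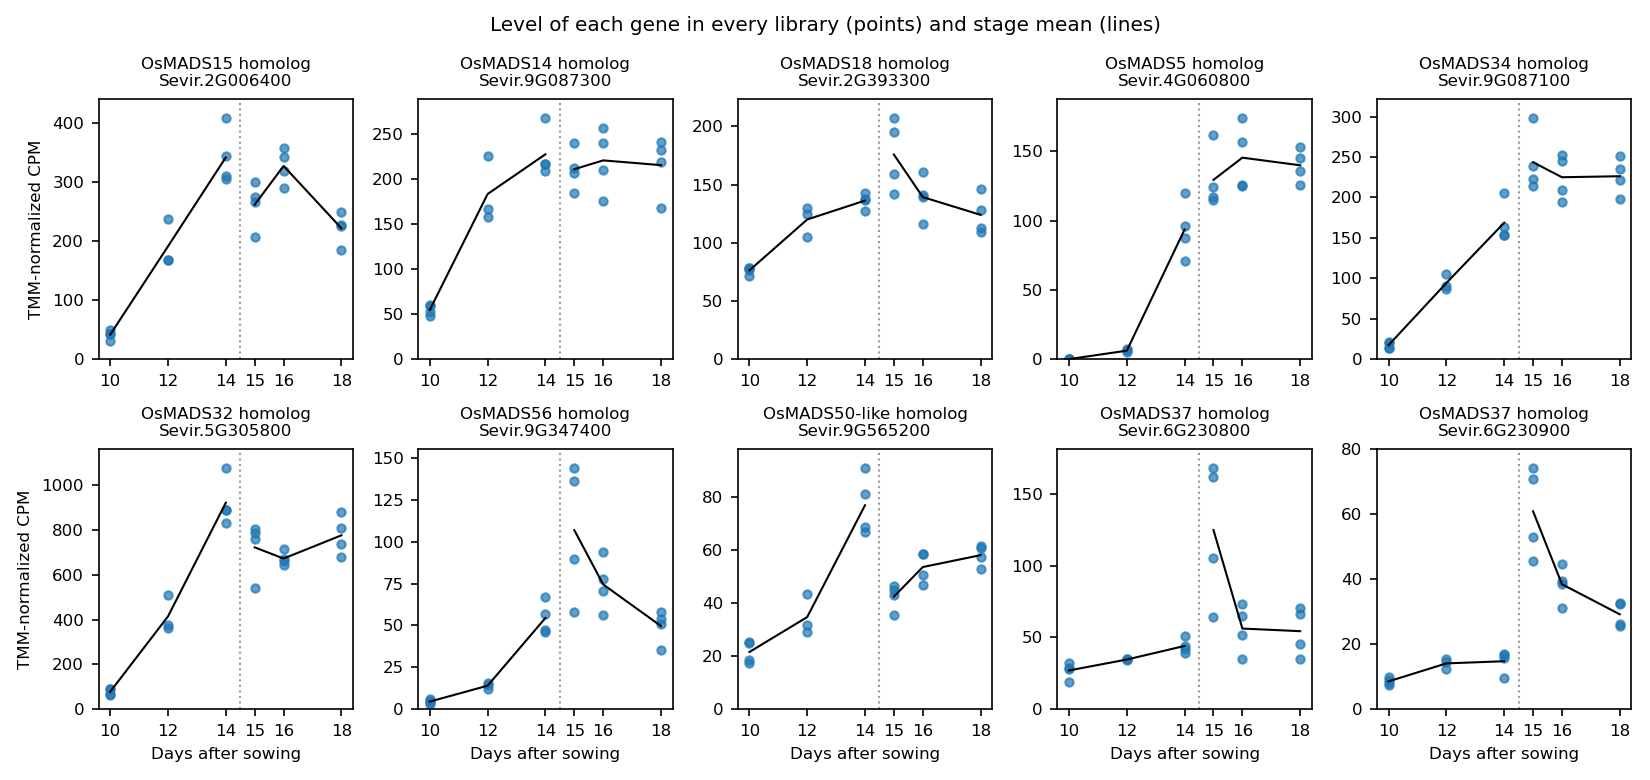
Level of each of the 10 genes (y axis, TMM-normalized CPM, a linear scale from 0 in each panel) in every library (points) against days after sowing (x axis). Lines join stage means within the paired-end (10 to 14 DAS) and single-end (15 to 18 DAS) libraries, which the dotted line separates. Every gene had its lowest mean at 10 DAS. The homologs of OsMADS18, OsMADS56 and OsMADS37 were lower at 18 than at 15 DAS, and the OsMADS50-like gene was higher.

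The 3 AP1/FUL-like genes rose by different amounts. The OsMADS15 homolog had 344, 409, 306 and 311 CPM in the 14 DAS libraries, against 43.6, 50.3, 30.8 and 42.4 CPM at 10 DAS, and the stages did not overlap. This was a log2 fold change of 3.03 (SE 0.16, adjusted p = 7.41e-13), or 8.19-fold. OsMADS14, a close relative that acts with it in rice meristem identity, had a homolog with 216, 267, 216 and 209 CPM at 14 DAS, against 59.7, 58.7, 47.9 and 52.4 CPM at 10 DAS. Its log2 fold change was 2.05 (SE 0.14, adjusted p = 1.08e-10). The OsMADS18 homolog changed less, with 127, 138, 143 and 137 CPM at 14 DAS, against 77, 78.2, 78.4 and 71.7 CPM at 10 DAS. Its log2 fold change was 0.84 (SE 0.12, adjusted p = 5.13e-06), again with no overlap. Between 12 and 14 DAS the OsMADS15 homolog was still higher at the later stage (0.84, SE 0.16, adjusted p = 0.00237). The differences were 0.31 (SE 0.15, adjusted p = 0.260) for OsMADS14 and 0.18 (SE 0.12, adjusted p = 0.479) for OsMADS18, which did not pass the threshold.

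At the later stages these genes were called in different comparisons. The OsMADS14 homolog had means of 210 ± 22.8, 220 ± 35.7 and 215 ± 32.6 CPM at 15, 16 and 18 DAS (SD, n = 4 each). Any change among these stages was not called for it (adjusted p = 0.897), and its difference at 18 against 15 DAS was 0.03 (SE 0.13). The OsMADS15 homolog had 262 ± 39.3, 328 ± 29.7 and 222 ± 27.1 CPM at the same stages (SD, n = 4 each). It was lower at 18 than at 16 DAS by log2 -0.56 (SE 0.14, adjusted p = 0.00411), with 185 to 250 CPM at 18 DAS, against 291 to 359 CPM at 16 DAS. Its difference at 18 against 15 DAS was -0.24 (SE 0.14, adjusted p = 0.187). The OsMADS18 homolog had 176 ± 30.6, 139 ± 18.3 and 124 ± 16.8 CPM (SD, n = 4 each) and was lower at 18 than at 15 DAS (log2 -0.50, SE 0.12, adjusted p = 0.00131). At 18 against 16 DAS it differed by -0.17 (SE 0.12, adjusted p = 0.265). Its lower level at 16 against 15 DAS (log2 -0.34, SE 0.12, adjusted p = 0.0329) lost the call without 15 DAS replicate 3 (-0.23, adjusted p = 0.177) or 4 (-0.28, adjusted p = 0.0995), and without 16 DAS replicate 1 (-0.33, adjusted p = 0.0662), 2 (-0.26, adjusted p = 0.120) or 3 (-0.34, adjusted p = 0.0592). Across the change of sequencing, at 15 against 14 DAS, OsMADS18 differed by 0.37 (adjusted p = 0.00921), OsMADS15 by -0.38 (adjusted p = 0.0269) and OsMADS14 by -0.11 (adjusted p = 0.504). The first lost its call without 15 DAS replicate 3 (0.26, adjusted p = 0.0661). The OsMADS15 call was lost without 14 DAS replicate 2 (-0.29, adjusted p = 0.108) or 15 DAS replicate 2 (-0.28, adjusted p = 0.0992).

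The OsMADS5 homolog was switched on between 10 and 14 DAS. At 10 DAS its libraries held 1, 4, 0 and 3 counts. It then had 7.20, 4.98 and 6.41 CPM at 12 DAS and 87.3, 120, 70.9 and 96.5 CPM at 14 DAS, with no overlap between any of these stages. Summed over the libraries, 6655 counts at 14 DAS stood against 8 at 10 DAS, a ratio of 893 after division by library totals, with an exact 95% interval of 453 to 2069. At 12 DAS there were 313 counts against the same 8, a ratio of 59.2 (29.7 to 138). These intervals cover counting error only. The difference of 14 against 12 DAS rests on ample counts and was log2 3.91 (SE 0.21, adjusted p = 5.02e-11), or 15.0-fold. From 15 DAS on the gene stayed near a plateau, with means of 130 ± 22.0, 146 ± 24.2 and 140 ± 11.8 CPM at 15, 16 and 18 DAS (SD, n = 4 each), and any change among them was not called (adjusted p = 0.612). At 15 against 14 DAS it was higher by 0.47 (SE 0.16, adjusted p = 0.0146). That call was lost without 14 DAS replicate 3 (0.35, adjusted p = 0.0686) or 15 DAS replicate 3 (0.33, adjusted p = 0.0948).

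OsMADS34, the other SEPALLATA-like gene, acts in rice in the passage from branch to spikelet meristem. Its homolog was already present at 10 DAS, with 19.9, 21.3, 14.4 and 14.4 CPM. It had 106, 86.4 and 90.5 CPM at 12 DAS and 163, 206, 153 and 153 CPM at 14 DAS, so each stage lay above the one before. The log2 fold change was 2.42 at 12 against 10 DAS (SE 0.15, adjusted p = 1.44e-10), 0.84 at 14 against 12 DAS (SE 0.15, adjusted p = 0.00123) and 3.26 at 14 against 10 DAS (SE 0.15, adjusted p = 1.23e-13). Its levels at 15 DAS were 239, 214, 298 and 223 CPM, all above the 14 DAS libraries (log2 0.53, SE 0.14, adjusted p = 0.00203). The means at 16 and 18 DAS were 225 ± 28.3 and 226 ± 22.4 CPM (SD, n = 4 each), and any change from 15 to 18 DAS was not called (adjusted p = 0.676).

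The OsMADS32 homolog also rose at each early stage. It had 892, 1078, 889 and 832 CPM at 14 DAS, against 91.0, 87.8, 63.7 and 68.7 CPM at 10 DAS, a log2 fold change of 3.57 (SE 0.15, adjusted p = 3.54e-14). The 12 DAS libraries, at 508, 362 and 374 CPM, lay between these without overlap. By 18 DAS it had 736, 681, 809 and 882 CPM, against 786, 807, 760 and 540 CPM at 15 DAS, and the stages overlapped (log2 0.10, SE 0.14, adjusted p = 0.568). At 15 against 14 DAS it was lower by log2 -0.35 (adjusted p = 0.0328). That call was lost without 14 DAS replicate 2 (-0.27, adjusted p = 0.116) or without 15 DAS replicate 4 (-0.24, adjusted p = 0.132).

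**Figure D3:**
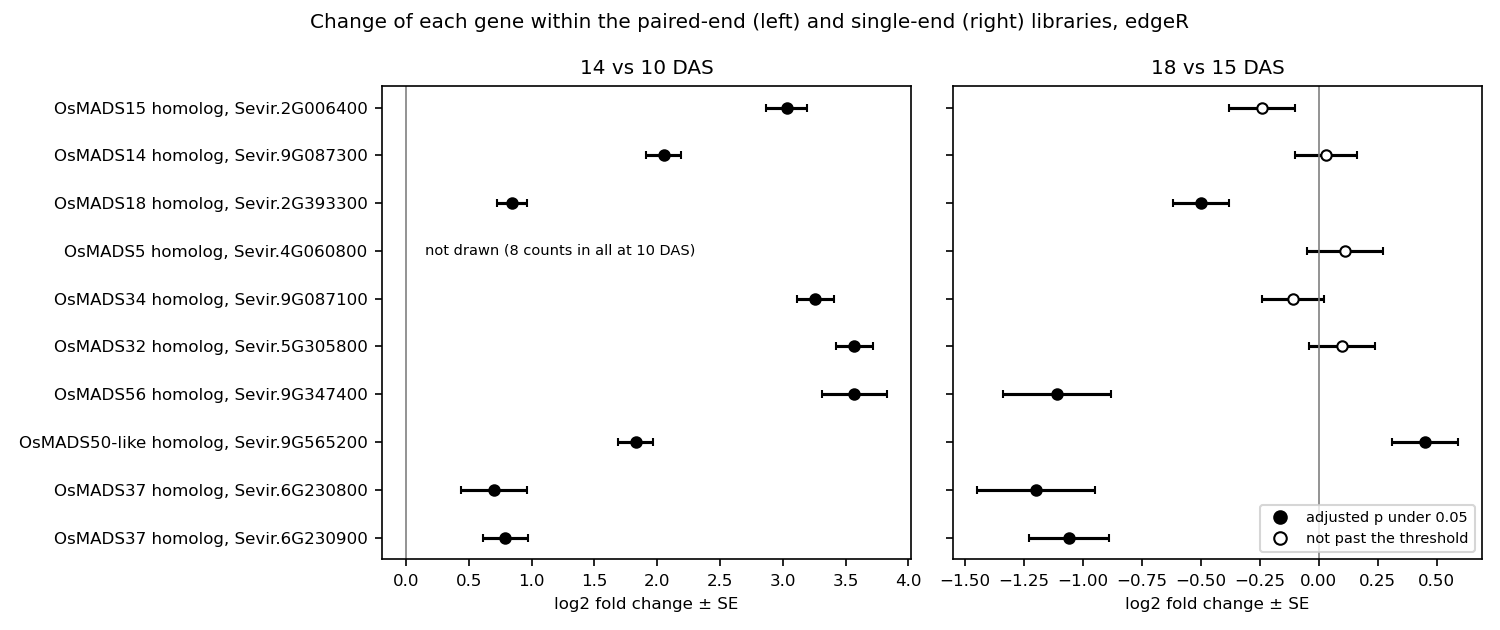
Log2 fold change with its SE (x axis) of each of the 10 genes (y axis) at 14 against 10 DAS, within the paired-end libraries (left), and at 18 against 15 DAS, within the single-end libraries (right). The SE is the one worked back from the F statistic. Filled points passed the threshold. Changes at 14 against 10 DAS ran from 0.70 to 3.57 for the 9 genes drawn, and at 18 against 15 DAS from -1.20 to 0.45. The OsMADS5 homolog is not drawn on the left, where its fitted value depends on 8 counts.

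Among the SOC1-like genes, the OsMADS56 homolog and the OsMADS50-like gene both rose early, by different amounts, and moved in opposite directions late. In rice OsMADS50 promotes flowering and OsMADS56 opposes it under long days. The OsMADS56 homolog had 46.3, 67.2, 47.4 and 56.8 CPM at 14 DAS, against 5.95, 4.82, 4.36 and 2.76 CPM at 10 DAS (log2 3.57, SE 0.26, adjusted p = 3.92e-10). The OsMADS50-like gene had 68.5, 90.8, 81.0 and 66.8 CPM at 14 DAS, against 25.4, 17.3, 25.0 and 18.3 CPM at 10 DAS (log2 1.83, SE 0.14, adjusted p = 7.90e-10). Neither gene overlapped between the stages. At 12 against 10 DAS the OsMADS56 homolog was higher by 1.61 (SE 0.28, adjusted p = 4.02e-04) and the OsMADS50-like gene, Sevir.9G565200, by 0.69 (SE 0.15, adjusted p = 0.00306). The second call was lost without 12 DAS replicate 1 (0.49, adjusted p = 0.0522).

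At 18 DAS the OsMADS56 homolog, Sevir.9G347400, had 35.1, 58.2, 51.1 and 54.0 CPM, against 89.4, 58.2, 144 and 136 CPM at 15 DAS. Only 15 DAS replicate 2 lay within the later range (log2 -1.11, SE 0.23, adjusted p = 4.26e-04). The OsMADS50-like gene, Sevir.9G565200, had 52.6, 61.6, 57.2 and 60.5 CPM at 18 DAS, against 44.8, 35.5, 42.8 and 46.3 CPM at 15 DAS, with no overlap (log2 0.45, SE 0.14, adjusted p = 0.0117). With 15 DAS replicates 3 and 4 alone, its difference was 0.38 (adjusted p = 0.0672), and that of the OsMADS56 homolog was -1.50 (adjusted p = 3.09e-06). Any change among 15, 16 and 18 DAS was called for Sevir.9G565200 (adjusted p = 0.0219), and the call was lost without 15 DAS replicate 2 (adjusted p = 0.0748). The 18 against 16 DAS difference of Sevir.9G347400 was -0.59 (SE 0.22, adjusted p = 0.0445). It did not pass without 16 DAS replicate 1, 3 or 4 (adjusted p = 0.0595, 0.0834 and 0.146) or without 18 DAS replicate 1, 3 or 4 (adjusted p = 0.145, 0.0632 and 0.0610). Its 16 against 15 DAS difference was -0.53 (SE 0.22, adjusted p = 0.0792) and passed without 15 DAS replicate 2 (-0.73, adjusted p = 0.00644) or 16 DAS replicate 4 (-0.66, adjusted p = 0.0459). At 15 against 14 DAS these 2 genes also differed in sign, at 0.98 (SE 0.22, adjusted p = 7.97e-04) for the OsMADS56 homolog and -0.86 (SE 0.14, adjusted p = 2.07e-05) for the OsMADS50-like gene.

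The 2 genes with OsMADS37 as closest rice gene both had their highest mean at 15 DAS. Sevir.6G230800 had 42.2, 50.9, 39.1 and 43.8 CPM at 14 DAS, against 28.4, 28.0, 32.3 and 19.0 CPM at 10 DAS (log2 0.70, SE 0.26, adjusted p = 0.0300). Although the libraries did not overlap, the call was lost without 10 DAS replicate 1, 2 or 4 (adjusted p = 0.0523, 0.0571 and 0.0923) or 14 DAS replicate 2 or 4 (adjusted p = 0.0875 and 0.0552), while the log2 fold change stayed between 0.57 and 0.72. Sevir.6G230900 had 16.7, 16.9, 9.62 and 15.7 CPM at 14 DAS, against 9.79, 7.33, 7.94 and 9.07 CPM at 10 DAS (log2 0.79, SE 0.18, adjusted p = 0.00111), and the stages overlapped through 14 DAS replicate 3. Its difference at 12 against 10 DAS (log2 0.71, SE 0.19, adjusted p = 0.0131) lost the call without 12 DAS replicate 1 (0.69, adjusted p = 0.0560) or 2 (0.64, adjusted p = 0.0594).

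At 18 DAS Sevir.6G230800 had 35.1, 70.5, 45.2 and 66.4 CPM, against 105, 64.1, 162 and 168 CPM at 15 DAS, where replicate 2 lay within the later range (log2 -1.20, SE 0.25, adjusted p = 5.87e-04). Sevir.6G230900 had 25.6, 32.6, 26.1 and 32.4 CPM at 18 DAS, against 52.9, 45.5, 74.2 and 70.9 CPM at 15 DAS, with no overlap (log2 -1.06, SE 0.17, adjusted p = 2.61e-05). With 15 DAS replicates 3 and 4 alone, the differences were -1.60 (adjusted p = 8.34e-06) for Sevir.6G230800 and -1.31 (adjusted p = 1.99e-06) for Sevir.6G230900. Both were already lower at 16 DAS, with log2 -1.16 (SE 0.25, adjusted p = 0.00199) and -0.67 (SE 0.16, adjusted p = 0.00443) against 15 DAS, in the same order. At 15 against 14 DAS Sevir.6G230900 was 4.15-fold and Sevir.6G230800 2.84-fold higher, the highest values of the 10 genes in that comparison. Green leaf markers also summed higher at 15 DAS (66.3 to 103 CPM) than at 14 DAS (49.4 to 55.5 CPM), and were at 47.2 to 54.3 CPM at 16 DAS. At 15 against 14 DAS, 3 of the 5 markers were called higher, among them PSB27 (means of 22.3 against 5.68 CPM). LIL3 (log2 0.14, adjusted p = 0.361) and Rubisco activase (0.60, adjusted p = 0.260) were not. At 18 DAS the sum of the markers was 73.5 to 102 CPM, within the range at 15 DAS, while both OsMADS37-like genes were lower at 18 than at 15 DAS. The median log2 fold change of the 5 markers at 18 against 15 DAS was 0.25. Their part in the values at 14 to 16 DAS was not tested. Whether the 2 genes share reads was not tested either. Fractional counts, which arise when reads are divided between transcripts, occurred for each of them in 2 of the 23 libraries.

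Within 15 DAS the libraries were less alike for 3 of these genes than for the other 7. At 15 DAS the highest library stood 2.62-fold above the lowest for Sevir.6G230800, 2.47-fold for the OsMADS56 homolog, Sevir.9G347400, and 1.63-fold for Sevir.6G230900. The other 7 genes had ratios of 1.30 to 1.49, and the median of 13022 genes with at least 10 CPM at that stage was 1.35. Larger ratios occurred in 3.94% of those genes for Sevir.6G230800, in 4.56% for the OsMADS56 homolog and in 20.8% for Sevir.6G230900, so the last was not unusual. In all 3 genes replicates 3 and 4 were the high libraries and replicate 2 the lowest. The OsMADS18 homolog showed the same split, with 159, 142, 207 and 195 CPM in replicates 1 to 4. Other stages had wide spreads too, such as 1.69-fold for the OsMADS5 homolog at 14 DAS, which 2.24% of genes exceeded. Sevir.6G230800 also varied 2.08-fold at 16 DAS and 2.01-fold at 18 DAS, where the medians over all genes were 1.19 and 1.22. Sevir.5G438700, the SOC1-like gene just outside the 10, varied 3.13-fold at 15 DAS, with 51.3 and 60 CPM in replicates 3 and 4 and 34.4 and 19.2 CPM in replicates 1 and 2. The depth of replicates 1 and 2 at 15 DAS was also the lowest of all. In the study's correlation of whole profiles, 2 samples of 15 DAS grouped with those of 16 DAS, and its legend does not name them. The study relates this to the likeness of the stages and the mixed make-up of the pools. The part of depth or of stage in this pattern was not tested.

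**Figure D4:**
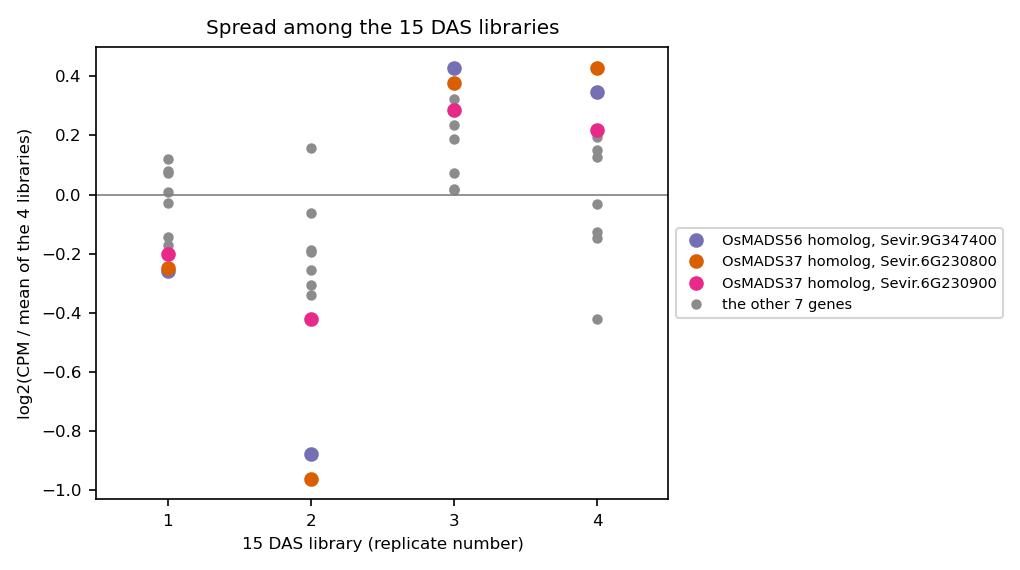
Level of each of the 10 genes in each 15 DAS library, as the log2 ratio to the mean of the 4 libraries (y axis), against the replicate number (x axis, which has no order). Coloured points are the OsMADS56 homolog and the 2 genes closest to OsMADS37, and grey points are the other 7 genes. The coloured genes were above their mean in replicates 3 and 4 and below it in replicates 1 and 2. The OsMADS18 homolog, among the grey points, was so too.

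Ratios of related genes within the same library were compared because they do not depend on how libraries are scaled. For 6 pairs, the mean log2 ratio of the counts (0.5 added to each) was compared at 14 against 10 DAS and at 18 against 15 DAS by exact two-sided permutation tests of 4 against 4 libraries, whose smallest possible p is 0.0286, with adjustment over the 12 tests. Of these, 7 differed, each at that smallest p and at an adjusted p of 0.0490. That value lies just under the threshold, and the 7 pass the adjustment only together. The ratios among the AP1/FUL-like genes are not independent, since each follows from the others. The OsMADS15 to OsMADS14 ratio was 0.59 ± 0.07 at 14 DAS, against -0.40 ± 0.18 at 10 DAS (SD, n = 4 each), with no overlap. The OsMADS14 to OsMADS18 ratio was 0.73 ± 0.17 at 14 DAS, against -0.49 ± 0.15 at 10 DAS (SD, n = 4 each), and it also differed at 18 against 15 DAS, at 0.79 ± 0.17 against 0.27 ± 0.16 (SD, n = 4 each). The OsMADS15 to OsMADS18 ratio differed by 2.21 at 14 against 10 DAS. At 18 against 15 DAS both ratios that involve OsMADS15 overlapped between stages, with differences of -0.26 to OsMADS14 and 0.26 to OsMADS18 (exact permutation, adjusted p = 0.137 for each).

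Of the SEPALLATA-like pair, the OsMADS5 to OsMADS34 ratio was -0.86 ± 0.19 at 14 DAS, against -7.42 ± 1.44 at 10 DAS (SD, n = 4 each), where the second value rests on 8 counts of OsMADS5 and on the amount added. At 18 DAS it was -0.69 ± 0.13, against -0.91 ± 0.11 at 15 DAS (SD, n = 4 each; exact permutation, adjusted p = 0.0857). The OsMADS56 to OsMADS50-like ratio differed in both comparisons. It was -0.50 ± 0.23 at 14 DAS, against -2.29 ± 0.40 at 10 DAS, and -0.25 ± 0.23 at 18 DAS, against 1.25 ± 0.48 at 15 DAS (SD, n = 4 each). The libraries of the stages compared did not overlap in either case. The ratio of Sevir.6G230800 to Sevir.6G230900 was 1.61 ± 0.29 at 14 DAS, against 1.64 ± 0.44 at 10 DAS, and 0.85 ± 0.29 at 18 DAS, against 0.96 ± 0.33 at 15 DAS (SD, n = 4 each). The exact permutation adjusted p was 0.886 for the first and 0.655 for the second, with libraries overlapping in both.

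**Figure D5:**
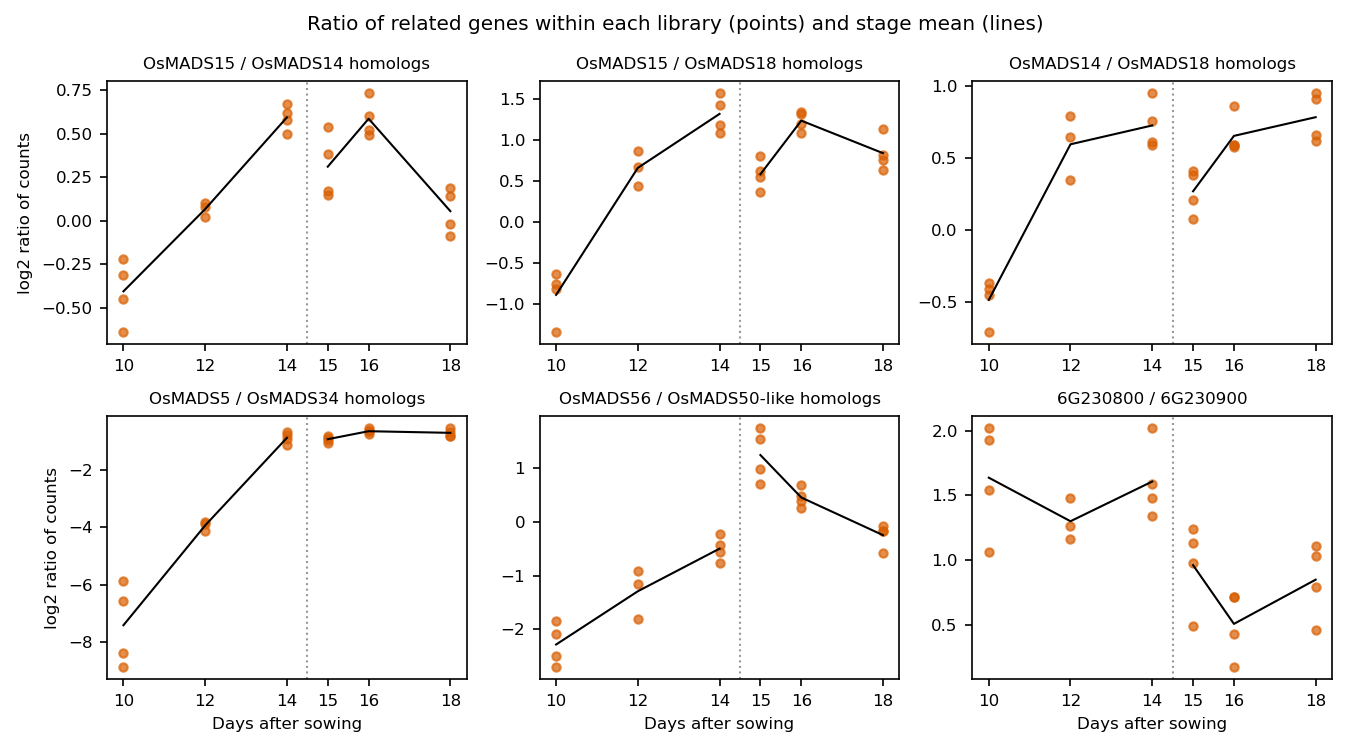
Log2 ratio of the counts of 2 related genes within each library (y axis, 0.5 added to each count) against days after sowing (x axis), for 6 pairs. Points are libraries, lines join stage means, and the dotted line separates paired-end from single-end libraries. The OsMADS15 to OsMADS14 ratio was 0.59 at 14 DAS, against -0.40 at 10 DAS, and the OsMADS56 to OsMADS50-like ratio was -0.25 at 18 DAS, against 1.25 at 15 DAS.

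The 9 other MADS-box genes outside both named groups gave a mixed picture. Of the 7 with enough counts to test, 3 were higher and 3 lower at 14 than at 10 DAS (median 0.17), and 1 was higher and 4 lower at 18 than at 15 DAS (median -0.90). At 14 against 10 DAS the extremes were the homologs of OsMADS2 (Sevir.5G410100, log2 1.63, SE 0.15) and OsMADS27 (Sevir.1G212700, 1.60, SE 0.50) on the upper side, and of OsMADS20 (Sevir.3G374400, -2.70, SE 0.23) and OsMADS26 (Sevir.6G011600) on the lower side. The last had 4 counts over the 14 DAS libraries, against 63 at 10 DAS, a ratio of 0.0682 with an exact 95% interval of 0.018 to 0.183. OsMADS20 is a further AP1/FUL-like gene of rice, and its homolog had means of 28.5, 13.8, 4.39, 2.12, 0.894 and 0.229 CPM from 10 to 18 DAS, unlike the 3 AP1/FUL-like members. Sevir.5G438700, the gene nearest to the 10, was lower at 14 than at 10 DAS (log2 -0.80, SE 0.22, adjusted p = 0.00594) and at 18 than at 15 DAS (-1.80, SE 0.24, adjusted p = 3.55e-06). A list of 12 regulators of meristem phase was put together from genes that the study discusses, and it holds the 3 Group 1 MADS-box genes. It had 3 higher and 7 lower at 14 than at 10 DAS. At 18 against 15 DAS 9 of the 12 were lower. All of the 7 were placed by the study in Group 1, whose genes were highest at 10 DAS in these same samples. SvLfy, SvUb3 and SvTsh4 were in its Group 2, whose genes tended to fall by 15 DAS and further at later stages. SvTsh4 was not called at 18 against 15 DAS (log2 -0.33, SE 0.15, adjusted p = 0.0861). SvDfl1 was lower (-1.80, SE 0.24, adjusted p = 5.04e-06), and the study's text places it in no group. The counts of genes called higher and lower are partly what the choice of genes made them, and are given as a description. Over all tested genes, 20.7% were higher and 21.5% lower in the first of these comparisons, and 22.1% higher and 20.6% lower in the second. Among them SvLfy, the LEAFY homolog that acts with AP1/FUL-like genes in flower meristems of other plants, was higher at 14 than at 10 DAS (log2 1.20, SE 0.16, adjusted p = 3.12e-06) and lower at 18 than at 15 DAS (-1.0, SE 0.16, adjusted p = 4.54e-05).

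For each of the 10 genes, the listed transcription factor with the most similar stage profile was sought among 424 tested members of 9 families, by the root mean square difference of log2(CPM + 1) stage means after each gene's own mean was removed. The distances are descriptions over 6 stages. Sevir.9G122200, a TCP gene whose closest Arabidopsis gene is BRC1, was nearest to both the OsMADS15 homolog (0.11) and the OsMADS32 homolog (0.30). Sevir.2G336100, an SBP-box gene, was nearest to the OsMADS34 homolog (0.15), and another SBP-box gene, Sevir.2G336300, was nearest to the OsMADS5 homolog, though at 1.12. The bZIP gene Sevir.5G394500 was nearest to the OsMADS56 homolog (0.29). These 5 pairs were the same with 0.1 added to CPM in place of 1. The nearest genes to the other 5 members changed with that amount. With 1 added they were Sevir.2G210100 (TCP, 0.23) for OsMADS14, Sevir.7G133400 (MADS, 0.10) for OsMADS18, Sevir.2G333900 (NAC, 0.22) for Sevir.6G230800, Sevir.3G196400 (AP2, 0.20) for Sevir.9G565200 and Sevir.3G386500 (C2H2, 0.31) for Sevir.6G230900. Among all other tested genes, the number nearer than the transcription factor named was 0 for OsMADS15 and OsMADS34, 1 for OsMADS56, 2 for OsMADS5, 3 for Sevir.9G565200, 4 for OsMADS32, 12 for OsMADS18, 29 for OsMADS14, 73 for Sevir.6G230900 and 77 for Sevir.6G230800. Within the 10, the OsMADS15 and OsMADS32 homologs were nearest to each other (0.31), and the 2 genes closest to OsMADS37 were nearest to each other (0.38).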

How the data were processed

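RNA-seq of 23 libraries was analysed from the deposited table of estimated counts per gene (expected counts), made by the authors with Salmon (v0.8.1) and summarised per gene with tximport over the primary transcripts of the *S. viridis* reference annotation, without normalization. Read 1 alone was used by the authors for the paired-end libraries. For 8.77% of values the estimate was not whole, and these were rounded. Columns were matched to samples by title, and no column was left unused. Genes passing edgeR's filter on low counts (21180) were tested in R v4.3.3 with edgeR v4.0.16 (TMM scaling, 1 mean per stage over all libraries, quasi-likelihood F-test, two-sided). All 10 members passed this filter. The 15 DAS replicates 1 and 2 had the lowest totals, so their values are the least precise. The tests were checked on simulated counts in which few genes changed, as many up as down. In these data many genes changed between stages, so that check does not cover the scaling here. The 10 genes, the lists and the pairs were chosen with earlier results of these data known. The genes named in the text are the 10 members, the 2 next by mean CPM, the nearest listed transcription factor of each member, the extremes among the other MADS-box genes and the phase regulators. SvLfy was singled out among the phase regulators after its values were seen. Alternatives were DESeq2 v1.42.0, library size alone, other filters, only the stages compared, the replicate number as a block, and each library left out. The study calls the libraries biological replicates, and the sample titles number them as replicates. Libraries of a stage differed by more than sampling noise (chi-square per degree of freedom of 3.68 to 44.9 over 33 pairs), so none was a copy. No transcript length or sequence was used for these gene identifiers.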

Additional observations from a re-analysis of the deposited data

Results flagged for a closer look

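In 50 groups of 4 libraries (10 genes at 5 stages), a library far from the others was seen in 2, where chance gives about 1 in 20 groups. The OsMADS14 homolog (Sevir.9G087300) had 267 CPM in 14 DAS replicate 2, against 209 to 216 CPM in the other 3 libraries. Sevir.6G230900 had 9.62 CPM in 14 DAS replicate 3, against 15.7 to 16.9 CPM in the other 3.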

How the results depend on the processing

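Of 70 pairs of a member and a comparison of 2 stages, 44 were called, 34 of them under every alternative run, and no called difference reversed. Of the 26 not called, 3 passed under some alternative. The number of members called stayed within 1.5 times its value under every alternative but for 18 against 16 DAS, where it was 2 and ranged from 1 to 3 when a library was left out. Leaving out a library gave 7 to 9 members called at 12 against 10 DAS, 9 to 10 at 14 against 10, 7 to 9 at 15 against 14, 2 to 4 at 16 against 15, and 5 to 6 for any change among 15, 16 and 18 DAS. Over all genes, leaving out a library gave 1739 to 4037 calls at 12 against 10 DAS (3040 with all) and 510 to 949 at 14 against 12 DAS (1116 with all), and fitting only the stages compared gave 1676 at 14 against 12 DAS. The causes were not tested. Scaling by library size alone lost the 15 against 14 DAS calls of the OsMADS15 homolog, Sevir.2G006400 (-0.28, adjusted p = 0.0841), and the OsMADS32 homolog, Sevir.5G305800 (-0.25, adjusted p = 0.149). With the replicate number as a block, the counts of members called were 10 at 14 against 10 DAS and 5 at 18 against 15 DAS, and no member's call changed among 90 tests. The number was not taken to pair the libraries. Of 55 same-numbered pairs, 14 correlated above 0.1 in their deviations from stage means (range -0.42 to 0.65). A library correlated best with its own number in 14 of 55 cases. Whether some same-numbered libraries share an origin was not tested. With 1 added to each count, the ratio tests kept their calls. A filter of at least 10 counts in every library removed the OsMADS5 homolog, so it left 9 members. Depth limits mainly that gene at 10 DAS.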
